A study of Rattus norvegicus with 9 samples.

Results

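The stathmins, neuronal microtubule-associated proteins (MAPs) and growth cone genes Stmn1, Stmn2, Stmn3, Stmn4, Mapt, Map1b, Map2, Gap43, Dcx and Tubb3 were described in rat embryos. They were taken as every probe set whose platform annotation gives 1 gene symbol equal to 1 of these 10 genes, which gave 19 of 31042 probe sets and 10 of 14217 genes. RNA came from the ventral spinal cord at embryonic day 14, on 9 Affymetrix rat arrays, each with total RNA pooled from 5 embryos. Of these, 4 pools carried mutant human SOD1 (hSOD1) with the G93R change, 4 carried wild-type hSOD1, and 1 pool was named the negative control. SOD1 codes for a superoxide dismutase, and inherited mutations in it cause amyotrophic lateral sclerosis, in which motor neurons die. The description of the negative control also calls its embryos positive, against its title; it was used as the negative control. The titles add Roth to the mutant, Chan to the wild-type and SDneg to the negative pool. Whatever these names mark, along with the rat line and the insertion site and level of each transgene, cannot be told apart from the group. The labels give no promoter for either transgene. A tag, le2, of no stated meaning stands in the titles of 3 mutant and 3 wild-type pools (replicates 2 to 4) and is missing from both replicates 1 and from the control.

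A growing axon is built on microtubules, polymers of alpha- and beta-tubulin that are assembled and taken apart at the growth cone. Stathmins bind free tubulin and promote disassembly, whereas MAPs such as tau bind along the polymer and stabilise or space it. At this stage motor neurons of the ventral cord have left the cell cycle and extend axons to muscle, and these genes are among the most abundant neuronal transcripts. In human neurons, STMN2 RNA is shortened by mis-splicing when the RNA-binding protein encoded by TARDBP is lost from the nucleus, which has made it a marker in amyotrophic lateral sclerosis.

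Values below are the deposited intensities on their linear scale, as mean ± SD of the 4 pools of a group. Log2 differences come from limma on log2(intensity + 8.25), which shrinks differences of dim probe sets. A probe set binds its own target with its own strength, so a stronger reading of a probe set does not mean more of its RNA, and levels are compared between pools. The array medians lay between 31.0 and 33.9, and arrays correlated at 0.976 to 0.986 across probe sets. The ratio of the 3' to the 5' probe set of beta-actin, a sign of RNA quality, ran from 6.98 to 7.98 over the mutant and from 8.19 to 19.2 over the wild-type pools, and stood at 6.66 in the control. These ranges did not overlap (p = 0.0286 in a two-sided exact permutation test, at the floor set by 70 arrangements). Wild-type replicate 2 held the ratio of 19.2, far above the 8.19 to 9.20 of the other wild-type pools. The same ratio for GAPDH ran from 2.492 to 2.587 over the mutant and from 2.585 to 3.561 over the wild-type pools. It was 2.68 in the control. The GAPDH ranges overlapped (p = 0.0571 in the same permutation test). The tissue label was set against marker genes, with 1 probe set per gene. All 17 pan-neuronal markers on the array lay above the filter on low values (a mean log2 value above the 40th percentile, about 17.3 in intensity), and their summed intensity was 25999 to 29071 over the mutant pools, 28031 to 28796 over the wild-type pools and 27334 for the negative control. Of 8 motor neuron markers 7 passed, Lhx4 being under the filter, with sums of 4076 to 5969 over the mutant pools, 3839.9 to 4670.3 over the wild-type pools and 4033 for the negative control; 6 of the 7 were higher in mutant than in wild-type pools (log2 median 0.23, 1 at an unadjusted p under 0.05). Neural progenitor markers passed at 10 of 14, with sums of 1301 to 1848 over the mutant pools, 1349 to 1793 over the wild-type pools and 1266 for the negative control. Dorsal cord markers passed at 4 of 5, led by Lhx1, with Tlx3 under the filter. Lbx1, Lmx1b, Pax7, Atoh1 and Pax3 had no probe set under their symbol alone. The sums were 850 to 1118 over the mutant pools, 916 to 1226 over the wild-type pools and 1050 for the negative control. Whether dorsal tissue was included was not tested. Sensory ganglion markers, of neurons that also use the members, passed at 5 of 8, led by Sncg, with sums of 3747 to 5563 over the mutant pools, 3508 to 3824 over the wild-type pools and 3820.4 for the negative control; 4 of the 5 had a positive difference (median 0.18, 2 at an unadjusted p under 0.05). Over all 9868 genes tested with 1 probe set each, 54.3% were higher in mutant pools and 4.3% stood at an unadjusted p under 0.05. No motor neuron or sensory ganglion marker passed after adjustment (lowest limma adjusted p = 0.929 in each list). The part of these marker levels in the values below was not tested. No blood or microglia marker (of 8) and no Schwann cell or neural crest marker (of 3) passed, and of mesenchyme, muscle and endothelial markers 2 each did, of 11, 7 and 6. Among oligodendrocyte and astrocyte markers Mbp passed, of 9. In such tissue RNA, fewer neurons and less RNA per neuron cannot be told apart.

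All 10 genes had at least 1 probe set above the filter, and 17 of the 19 member probe sets passed it. For Tubb3 this was only 1371618_s_at, whose probes are listed for more than 1 transcript. The difference between mutant and wild-type hSOD1, which sets the mutation against the same human gene without it, passed the threshold at 0 of 17 member probe sets (limma adjusted p of 0.929 to 0.991). Over all 18625 tested probe sets 0.0161% passed. At an unadjusted p under 0.05 stood 1 member, against 4.93% of all tested. No member was free of overlap between mutant and wild-type pools, where 2.95% of all tested probe sets showed no overlap. Differences ran from −0.31 to 0.18 on the log2 scale, with 10 higher and 7 lower in mutant pools and a median of 0.026, beside a median of 0.013 and 53.7% higher over all tested. For 15 of the 17 the 95% interval of the difference lay within 1.5-fold either way, and for 8 within 1.2-fold. Changes inside these intervals remain compatible with the values of 4 pools a group. The intervals are not adjusted for the number of tests, so they do not give the smallest change that could be called. A p that misses the threshold does not show equal levels.

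**Figure D1:**
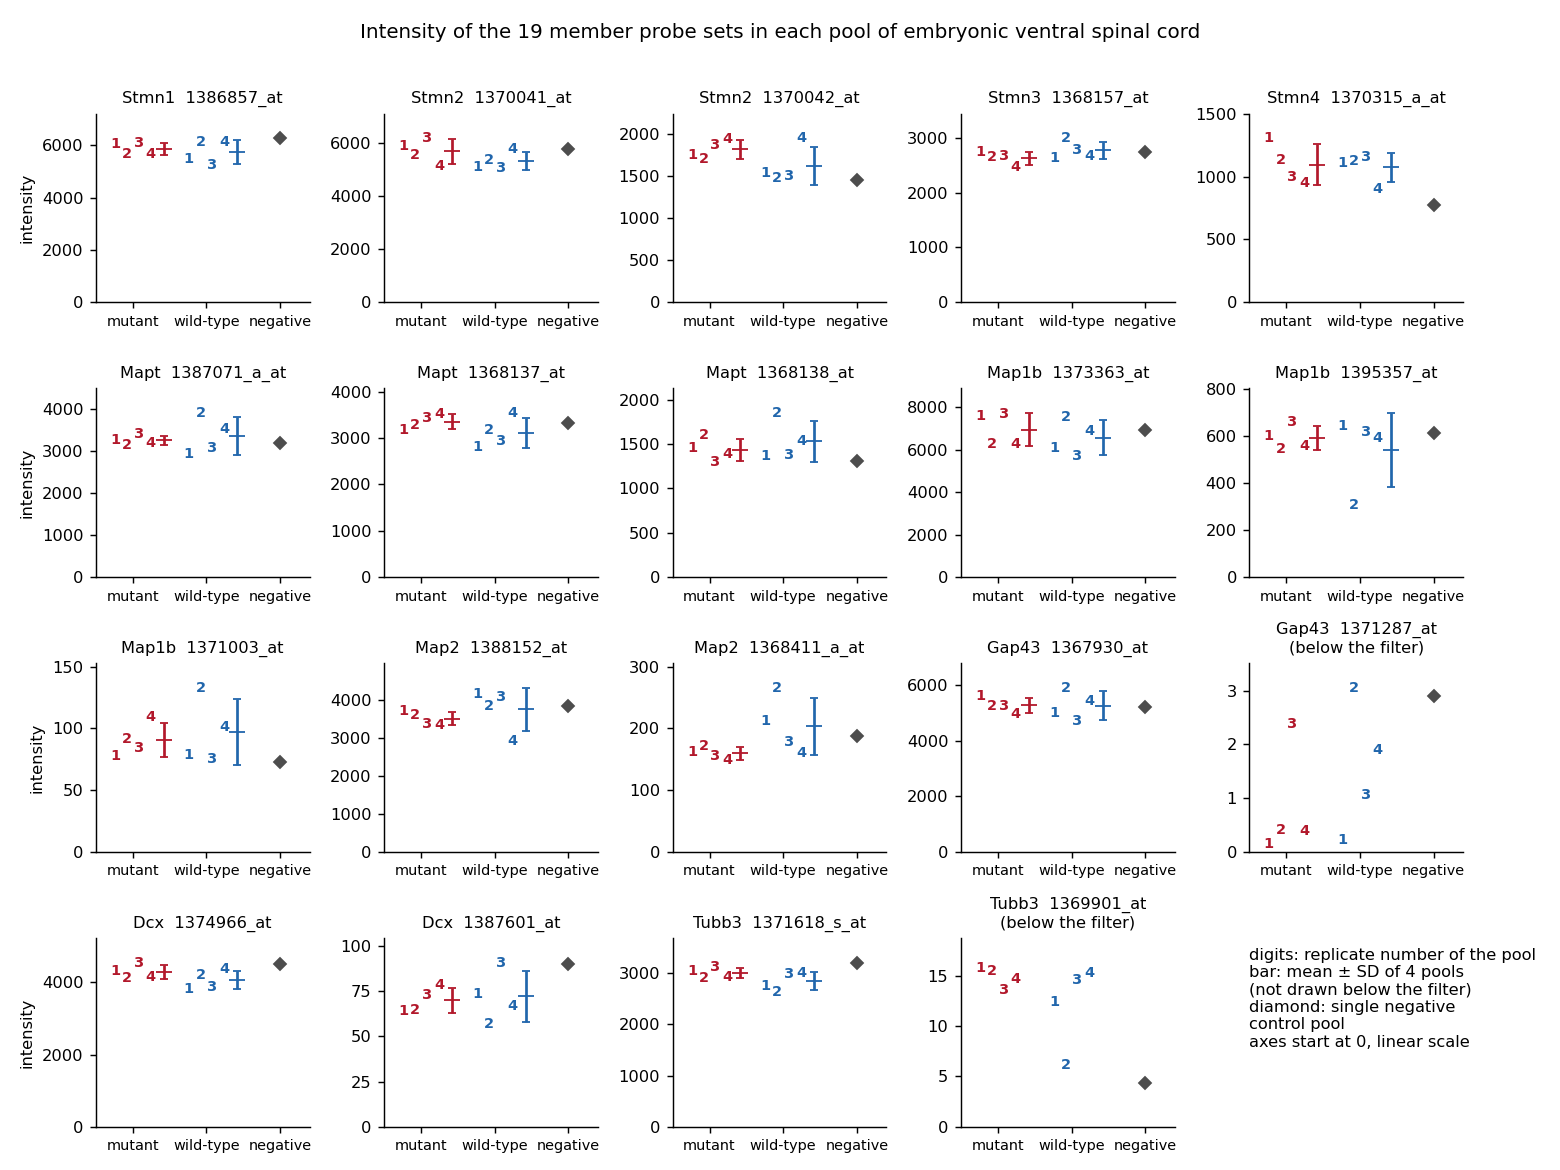
Intensity (linear scale, axes from 0) of each of the 19 member probe sets in the mutant and wild-type hSOD1 pools, drawn as the replicate number, and in the single negative control (diamond); bars, drawn for probe sets above the filter, are mean ± SD of 4 pools. Mutant and wild-type pools overlap at every probe set that passed the filter, wild-type replicate 2 stands apart at Map1b 1395357_at with 305, and the negative control lies below all 8 transgenic pools at Stmn4.

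Stmn1 codes for the stathmin found in dividing cells as well as neurons. Its probe set read 6059, 5662, 6082 and 5675 in mutant replicates 1 to 4 and 5462, 6136, 5248 and 6129 in wild-type replicates 1 to 4. The wild-type pools spanned a wider range, 5248 to 6136, that took in all 4 mutant values, and the negative control at 6275 was the highest of the 9 arrays. The means were 5869.6 ± 233 and 5744 ± 457, a log2 difference of 0.034 (95% interval −0.10 to 0.17, limma adjusted p = 0.966).

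Stmn2, also named SCG10, is the stathmin of growing axons and is attached to membranes of the growth cone. On the brighter probe set, 1370041_at, mutant pools read 5885, 5538, 6189 and 5124. Wild-type pools read 5108, 5352, 5074 and 5781, and the negative control 5790.4. Wild-type replicate 4 lay inside the mutant range, and mutant replicate 4 lay among the wild-type pools. The difference was 0.091 (95% interval −0.054 to 0.24, limma adjusted p = 0.929). The second Stmn2 probe set, 1370042_at, read 1754, 1698, 1874 and 1941 in mutant and 1532, 1477, 1494 and 1950.1 in wild-type pools. Here 3 wild-type pools lay below every mutant pool while wild-type replicate 4 was the highest of all 9 arrays. The difference was 0.18 (95% interval −0.019 to 0.38, limma adjusted p = 0.929), with an unadjusted p of 0.0728. Without wild-type replicate 4 it was 0.27 (limma adjusted p = 0.439), and with the log2 actin ratio as a covariate 0.088.

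Stmn3, a stathmin of neurons also named SCLIP, read 2732, 2646, 2668 and 2459 in mutant replicates 1 to 4, 2628, 2995, 2781 and 2676 in the wild-type ones and 2735 in the control. The highest value belonged to wild-type replicate 2 and the lowest to mutant replicate 4, and wild-type replicates 1 and 4 lay inside the mutant range. The group means were 2626 ± 118 and 2770.2 ± 163, and the difference was −0.076 (95% interval −0.21 to 0.062, limma adjusted p = 0.931). Stmn4, also named RB3 and found in neurons, spread more between pools. It read 1310.0, 1134, 997 and 953 in mutant and 1111, 1131, 1157 and 903 in wild-type pools. Mutant replicate 1 was highest and wild-type replicate 4 lowest of the 8, and the groups overlapped over most of their range. The difference was 0.026 (95% interval −0.21 to 0.26, limma adjusted p = 0.979). Over the 4 stathmin genes, 4 of 5 probe sets had a positive and 1 a negative difference, and none passed the test.

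**Figure D2:**
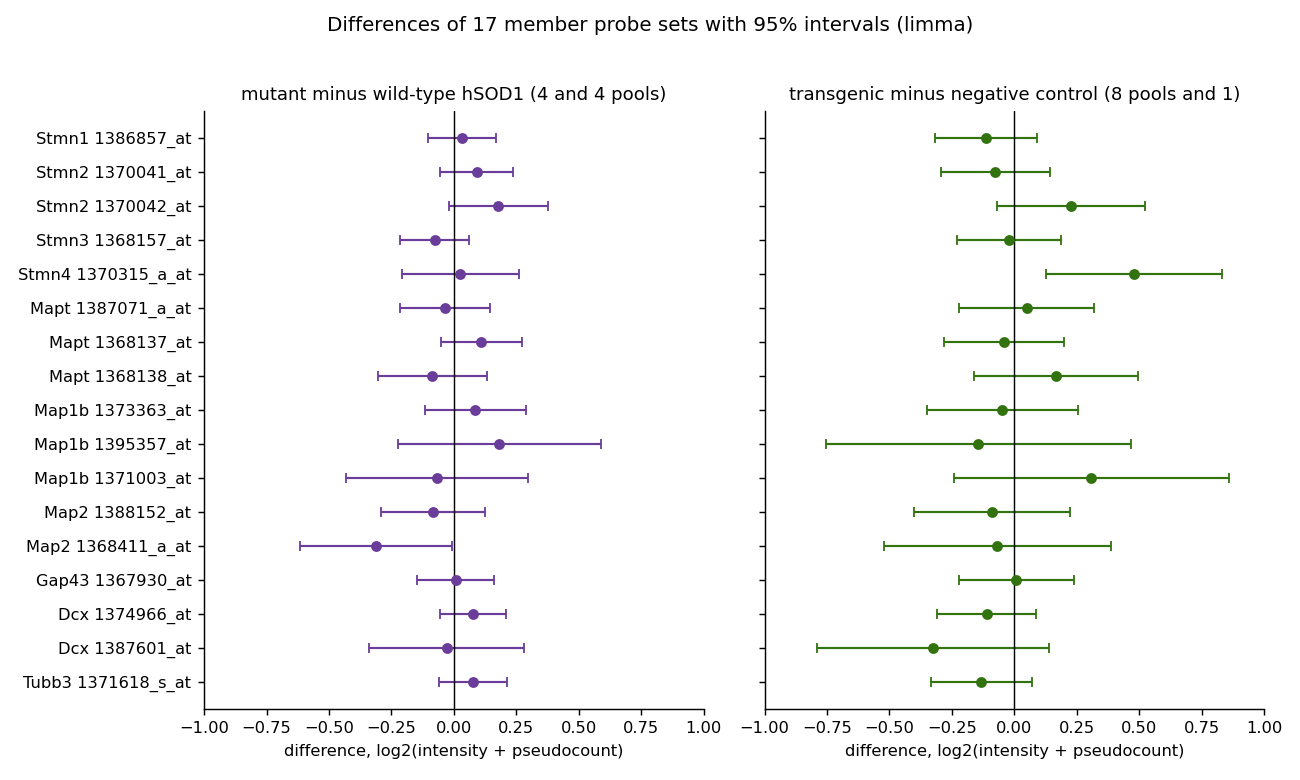
Log2 differences of the 17 member probe sets above the filter, with 95% intervals from limma, between mutant and wild-type hSOD1 (left, 4 and 4 pools) and between the 8 transgenic pools and the single negative control (right). Intervals on the left cross 0 at 16 of 17 probe sets, Map2 1368411_a_at being the exception, and on the right at 16 of 17, Stmn4 being the exception; no adjusted p passed.

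Mapt codes for tau, the MAP of axons, and was covered by 3 probe sets. On 1387071_a_at the pools read 3261, 3140.3, 3396 and 3183 in mutant and 2920.2, 3895, 3054 and 3514 in wild-type pools, so that the narrow mutant range lay inside the wild-type one. On 1368137_at mutant pools read 3163, 3272, 3433 and 3518 and wild-type pools 2806, 3166, 2936 and 3535, where wild-type replicate 4 was the highest of the 8 and replicates 1 and 3 the lowest. On 1368138_at mutant pools read 1455, 1599, 1296 and 1383 and wild-type pools 1361, 1850.4, 1372 and 1537, where wild-type replicate 2 stood above all others. The differences of the 3 probe sets did not share a sign: −0.035 for 1387071_a_at, 0.11 for 1368137_at and −0.087 for 1368138_at, with 95% intervals that all included 0. Wild-type replicate 2 was the highest of the 9 arrays on 1387071_a_at and 1368138_at, where it stood 0.30 and 0.38 above the mean of the other wild-type pools on the log2 scale. Without that pool the differences of these probe sets were 0.041 and 0.0081, of the opposite sign.

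Map1b, the MAP that appears first in growing axons, also had 3 probe sets. The probe set with the strongest signal, 1373363_at, read 7585, 6282, 7668 and 6262 in mutant and 6081, 7558, 5709 and 6885 in wild-type pools. The groups overlapped broadly, with a difference of 0.085 (95% interval −0.12 to 0.29, limma adjusted p = 0.947). On 1395357_at mutant pools read 599.7, 545, 659.7 and 556, wild-type pools 643, 305, 617 and 592 and the negative control 611. Wild-type replicate 2 alone was low, at a log2 departure of −0.998 from the mean of the other wild-type pools, a departure matched or exceeded downward by 0.580% of tested probe sets. On 1371003_at the pools read 77.4, 91.8, 83.9 and 109 in mutant and 78.4, 133, 75.4 and 101 in wild-type replicates, and here the same pool was the highest of the 9 arrays. The difference on it was −0.068 (95% interval −0.43 to 0.30, limma adjusted p = 0.972). So 1 pool departed in opposite directions on different probe sets of 1 gene. The difference on 1395357_at was 0.18 (95% interval −0.23 to 0.59, limma adjusted p = 0.937) with that pool and −0.068 (limma adjusted p = 1.00) without it. With the log2 actin ratio as a covariate it was −0.26 (95% interval −0.50 to −0.025, unadjusted p = 0.033, limma adjusted p = 1.00).

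Map2, the MAP of dendrites and cell bodies, gave the member probe set with the smallest p between mutant and wild-type pools. On 1368411_a_at the mutant pools read 162, 172, 155 and 148 and the wild-type pools 211, 265, 177 and 159.8, with 187 in the negative control. Mutant replicate 2 exceeded wild-type replicate 4, and mutant replicate 1 did too, so that the groups overlapped. The means were 159 ± 10.2 and 203 ± 46.5, a log2 difference of −0.31 (95% interval −0.62 to −0.0095, limma adjusted p = 0.929), at an unadjusted p of 0.0442. Wild-type replicate 2, at 265, was the highest array here too. Without it the difference was −0.18 (95% interval −0.43 to 0.071), and with the log2 actin ratio as a covariate −0.053 (95% interval −0.32 to 0.21). The brighter Map2 probe set, 1388152_at, read 3687, 3602, 3368 and 3339.7 in mutant and 4149, 3825, 4068 and 2922 in wild-type replicates, with means of 3499 ± 172 and 3741 ± 563 and a difference of −0.084 (95% interval −0.29 to 0.12, limma adjusted p = 0.95). There wild-type replicate 4 was the lowest of the 9 arrays, while the other wild-type pools lay above all 4 mutant pools. Without it the difference was −0.20 (limma adjusted p = 0.492).

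Gap43 codes for a membrane phosphoprotein of the growth cone. Its probe set 1367930_at read 5612, 5261, 5253 and 4974 in mutant, 5007, 5902, 4715 and 5439 in wild-type pools, while the negative control read 5229.9. Its group means were the closest of the 17, 5275 ± 261 and 5266 ± 518, with a log2 difference of 0.0064 (95% interval −0.15 to 0.16, limma adjusted p = 0.991). Wild-type pools held both the highest and the lowest value of the 9 arrays.

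Dcx codes for doublecortin, a microtubule-binding protein of newborn and migrating neurons. Its probe set 1374966_at read 4319.7, 4117, 4539 and 4159 in mutant replicates, 3831, 4212, 3869 and 4359 in wild-type replicates and 4506 in the control. Wild-type replicates 1 and 3 lay below every mutant pool and the other 2 among them, with means of 4284 ± 191 and 4068 ± 259, a difference of 0.076 (95% interval −0.057 to 0.21, limma adjusted p = 0.929). The dimmer probe set 1387601_at ranged over 63.9 to 78.5 and 57.1 to 90.7, with a difference of −0.028 (95% interval −0.34 to 0.28, limma adjusted p = 0.983). Tubb3, the beta-tubulin isotype of neurons, read 3046, 2901, 3121 and 2936 in mutant and 2752, 2641, 2990.2 and 3014 in wild-type pools on 1371618_s_at. The s in this name marks probes that Affymetrix lists for more than 1 transcript, so the reading may not be of Tubb3 alone. No other Tubb3 probe set passed the filter. The 2 lowest arrays were wild-type replicates 1 and 2, wild-type replicates 3 and 4 lay within the mutant range, and the difference was 0.076 (95% interval −0.060 to 0.21, limma adjusted p = 0.93).

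The other probe sets of Gap43 and Tubb3 lay under the filter and were not tested. Gap43 1371287_at read 0.140 to 3.05 over the 9 arrays, where the tested Gap43 probe set read 4715 to 5902. Tubb3 1369901_at read 13.6 to 15.7 in mutant, 6.1 to 15.3 in wild-type pools, against 4.37 in the control. Values this low are close to the pseudocount and no fold is given for them.

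The differences were also taken within each class of the tag, without a test between the classes. Among the tagged arrays (3 mutant, 3 wild-type) 8 of 17 member probe sets were higher in mutant pools, with a median difference of −0.0048 on the log2 scale, beside 0.014 and 53.7% higher over all tested probe sets. Between the untagged arrays (replicate 1 of each group) 12 of 17 were, with a median of 0.15, beside 0.0091 and 51.7% higher over all tested. The untagged pair has no replicate. The tag stands on the same number of pools in both groups. As a covariate in the fit of 8 arrays it therefore could not move a member difference, so that fit does not test its part. For Stmn1 the difference was −0.0048 among tagged and 0.15 between untagged arrays, for Stmn4 −0.044 and 0.24, and for Map1b 1373363_at 0.0074 and 0.32. Stmn2 had 0.054 and 0.20 on 1370041_at and 0.17 and 0.19 on 1370042_at. Map2 1368411_a_at had −0.30 and −0.36, lower in mutant pools both times.

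**Figure D3:**
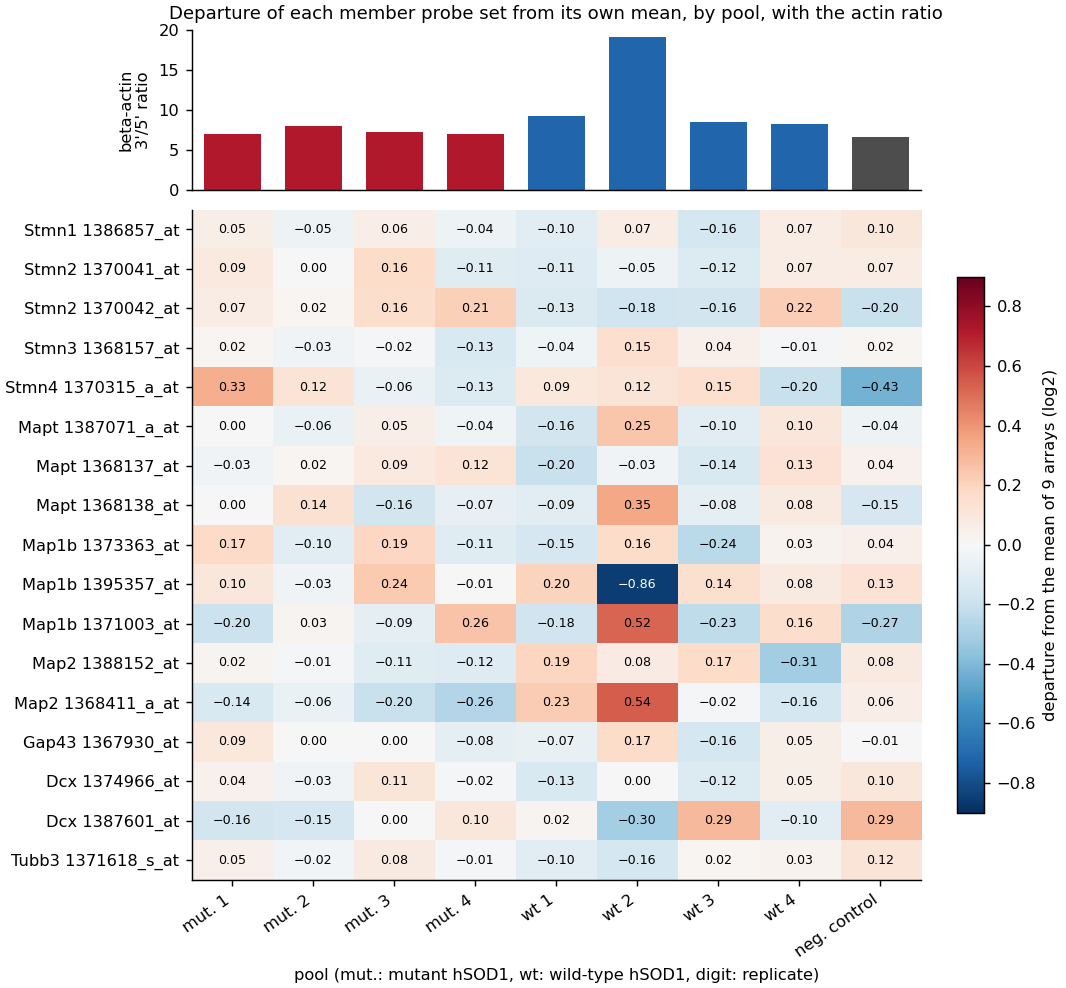
Departure of each of the 17 member probe sets above the filter from its own mean over the 9 arrays (log2, one column per pool), under bars of the beta-actin 3'/5' ratio of each pool. Wild-type replicate 2, with a ratio of 19.2, holds the darkest cells in both directions, lowest at Map1b 1395357_at and highest at Map2 1368411_a_at and Map1b 1371003_at.

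Of the 8 transgenic pools, wild-type replicate 2 departed most from the others over the members. It was the highest of the 8 transgenic arrays at 7 member probe sets and the lowest at 4, and over all tested probe sets it was highest at 21.0% and lowest at 22.4%. Its median absolute departure from the transgenic mean was 0.17 on the log2 scale for members and 0.17 for all tested, while the other transgenic pools had 0.023 to 0.13 for members. The part of the actin ratio in this was not tested. Fits were run with the ratio as a covariate and without this pool. The ratios of mutant and wild-type pools did not overlap, so the covariate fit cannot fully tell the ratio apart from the group. With the covariate and without the pool, 0 members passed after adjustment and 12 were higher in mutant pools in each. Among the 13 member probe sets with a mean intensity above 1000, the residual SD had a median of 0.11 on the log2 scale, the same to 2 digits as the 0.11 of all 1440 tested probe sets that bright.

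The comparison with the negative control addresses what goes with an hSOD1 transgene of either kind, and rests on 1 control pool whose own spread is unknown. No member passed in limma, with 1 at an unadjusted p under 0.05 beside 3.12% of all tested. All 18625 probe sets gave 0 calls, 0%. Stmn4 was that member. It was 1087 ± 130.4 in the 8 transgenic pools, with every pool from 903 to 1310.0, and 773 in the negative control. The difference was 0.48 (95% interval 0.13 to 0.83, limma adjusted p = 1.00), with an unadjusted p of 0.0117, and it was 0.49 for mutant and 0.47 for wild-type pools against the same control. Over the 20 alternatives it stayed between 0.44 and 0.64, the latter with the le2 tag as a covariate. Stmn4 had no second probe set to compare with.

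Stmn2 1370042_at lay above the negative control in 8 of 8 transgenic pools, at 1715 ± 197 against 1455, a difference of 0.23 (95% interval −0.068 to 0.52, limma adjusted p = 1.00). The brighter Stmn2 probe set did not move the same way: 2 of 8 transgenic pools lay above the control, with a difference of −0.076 (95% interval −0.29 to 0.14, limma adjusted p = 1.00). Map1b 1371003_at was above the control in 8 of 8 pools too, at 93.8 ± 19.8 against 72.9, while the other Map1b probe sets had 3 of 8 each. The difference on 1371003_at was 0.31 (95% interval −0.24 to 0.86). With the le2 tag as a covariate it was 0.087, and with the log2 actin ratio as a covariate 0.12. Stmn1 and Tubb3 1371618_s_at lay below the control in 8 of 8 pools, with log2 differences of −0.11 and −0.13 (adjusted p = 1.00 in limma for each), with Stmn1 at 5807 ± 343 against 6275 and Tubb3 at 2925 ± 159 against 3202. In all, 3 members had all 8 pools above and 2 had all 8 below the control, while over all tested probe sets the shares were 9.19% and 10.5%. Higher with a transgene were 6 of the 17 members, beside 46.5% of all tested. The remaining members had transgenic pools on both sides, with differences from −0.32 at Dcx 1387601_at to 0.17 at Mapt 1368138_at. Since both transgenic groups share this control pool, their agreement on its side of it is not independent.

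Other genes of the microtubule and growth cone machinery were read with 1 probe set per gene, beside a median difference of 0.014 between mutant and wild-type pools over all 9868 genes tested this way. None of the lists held a gene past the threshold, and of all 9868 genes 2 passed. The members themselves were higher in mutant pools at 7 of 10 genes on this count, with a median of 0.030, and over all 9868 genes the share was 54.3%. At an unadjusted p under 0.05 stood 4.3% of the 9868. Tubulin isotypes were higher at 7 of 7, with a median of 0.048 and 1 at an unadjusted p under 0.05, Tubb4a, a beta-tubulin of brain, at 489 ± 116 against 349 ± 48.5 (log2 difference 0.45, limma adjusted p = 0.929). The other Tubb4a probe sets had 0.19 and −0.057. Tubb5, an abundant beta-tubulin of developing tissue, was 6019 ± 433 against 5683 ± 348. The other MAPs were higher at 15 of 28, with a median of 0.0060. Among them Map1a, the relative of Map1b that is known from mature neurons, was 39.8 ± 9.38 against 58.4 ± 19.4 (log2 difference −0.45, limma adjusted p = 0.929). The CRMP family, which binds tubulin downstream of semaphorins, was higher at 3 of 5, with a median of 0.025.

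Growth cone membrane and actin genes were higher in mutant pools at 16 of 25, with a median of 0.047 and 2 at an unadjusted p under 0.05. Cdc42, a small GTPase that shapes actin protrusions, averaged 2932 ± 119.7 over mutant and 2442 ± 139 over wild-type pools, 2772 to 3061 against 2297 to 2578 without overlap. Its log2 difference was 0.26 (limma adjusted p = 0.667), and the negative control read 2328, within the wild-type range. Its other probe sets had differences of 0.062 and 0.0089. Ncam1, a cell adhesion molecule, was 149 ± 39.6 against 103 ± 27.5 (log2 difference 0.51, limma adjusted p = 0.929). The other Ncam1 probe sets had differences of 0.0011 and 0.28. Basp1, a membrane protein that acts much like Gap43, was 1480.4 ± 186 against 1787 ± 378, a difference of −0.26 (limma adjusted p = 0.929). The other Basp1 probe set went the other way, with 0.29, so the sign for this gene is unsettled. Kinases and regulators of stathmins and MAPs were higher at 12 of 15, with a median of 0.038, and 0 stood at an unadjusted p under 0.05. Pan-neuronal markers were higher at 5 of 17 and lower at 12, with a median of −0.083, also with 0 at an unadjusted p under 0.05. Elavl3, an RNA-binding protein of neurons, was 854 ± 147 against 1050.5 ± 247, with log2 differences of −0.28 on this probe set and −0.18 on its other one.

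Against the negative control the same lists gave medians between −0.062 for the members and 0.060 for growth cone membrane and actin genes, beside −0.0035 over the 9868 genes, of which 49.1% were higher with a transgene and 3.02% stood at an unadjusted p under 0.05. The members were higher with a transgene at 3 of 10 genes, other MAPs at 8 of 28, tubulin isotypes at 4 of 7, the CRMP family at 3 of 5, growth cone genes at 16 of 25, regulators at 10 of 15 and pan-neuronal markers at 13 of 17. At an unadjusted p under 0.05 stood 2 pan-neuronal markers, Thy1 and Gng3, 1 growth cone gene, Evl, and 1 member, Stmn4, with 0 of the tubulin, MAP, CRMP and regulator lists. Thy1, a surface glycoprotein of neurons, was 24.7 ± 6.8 against 3.74, above the control in 8 of 8 pools (log2 difference 1.43, unadjusted p = 0.000484, limma adjusted p = 1.00). The control reading of Thy1 lies under the pseudocount of 8.25, so the size of this difference depends on the value added. The other Thy1 probe set is not given here. Gng3, a G protein subunit of neurons, was 433 ± 43.4 against 309, and Evl, an actin regulator of the growth cone, 2667 ± 163 against 2291, each above the control in 8 of 8 pools (limma adjusted p = 1.00 for both). The other Evl probe set had a difference of −0.67, opposite to the 0.22 of the first. Tppp3, a tubulin polymerisation-promoting protein, was 833 ± 94.6 against 676, and Spast, the microtubule-severing enzyme spastin, 2154 ± 118 against 2429.7. Spast had log2 differences of −0.18 on this and 0.17 on its other probe set.

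**Figure D4:**
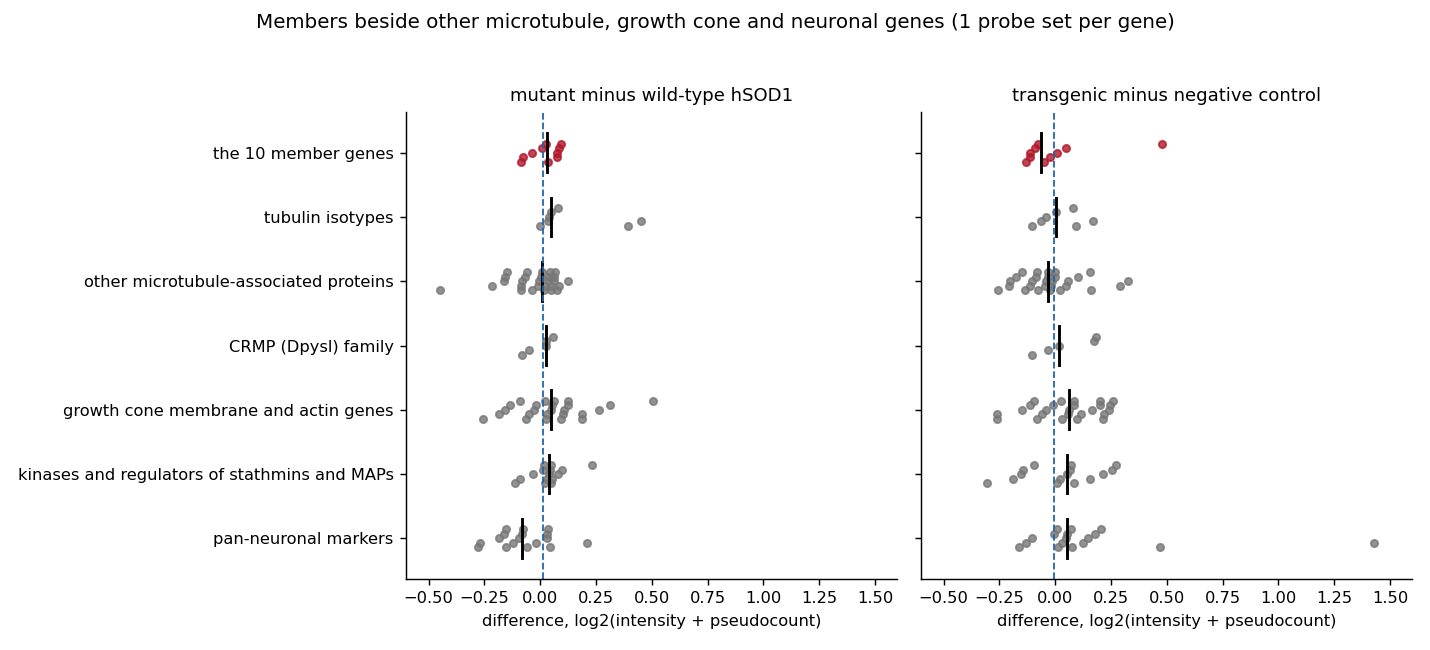
Log2 differences of the 10 member genes (red) and of genes in 6 related lists (grey), 1 probe set per gene, between mutant and wild-type hSOD1 (left) and between the transgenic pools and the negative control (right). Black bars are list medians and the dashed line is the median of all 9868 genes; every list has genes on both sides of that line, and on the left 7 of 7 tubulin isotypes lie above 0.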

How the data were processed

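The values are intensities on a linear scale, as the authors deposited them; their software is not given in the labels. The values show that the arrays had been scaled, since every array had a mean of 150.05 after 2% was trimmed at each end. Log2 medians of the arrays differed by 0.10 at most, so no normalization was added. All 9 columns were used. Of 31099 probe sets, 57 Affymetrix controls were left out, 20826 had 1 gene symbol, 436 several and 9780 none.

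Intensities were taken to log2 after adding 8.25, the 25th percentile of all values, and 18625 probe sets with a mean log2 value above the 40th percentile were tested with limma 3.58.1 in R 4.3.3 with an intensity trend. Adjustment was by Benjamini-Hochberg over all of these, with calls at 0.05. Mutant pools were set against wild-type pools on their 8 arrays, and the negative control in a fit of 9, where it is assumed to vary like the other pools. All 19 member probe sets are described; of each related list, counts, medians and up to 3 genes with the smallest p per comparison could be named, and of each marker list the brightest and those under the filter. Members and lists were chosen with earlier results of these data known. The labels do not pair the pools. The limma p-values set a difference against the spread between pools, which comes from the transgenic pools alone since the control is a single pool. The number of arrays limits the precision.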

Additional observations from a re-analysis of the deposited data

Results flagged for a closer look

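Within a group of 4 pools, the gap of a pool to its nearest neighbour was set against the group's range on the log2 scale. In 4 of 38 groups of member values this share was over Dixon's 95% critical value. Chance marks about 5% of independent, normally spread groups, 1.9 of 38. The 38 groups share the same 8 pools, and the share over all tested probe sets was not taken. No excess at the members is therefore read from this count. At Map1b 1395357_at wild-type replicate 2 read 304.9 against 592 to 643 in the other wild-type pools (gap 0.889 of the range), and this pool also had the highest actin ratio. At Stmn2 1370042_at wild-type replicate 4 read 1950.1 against 1477 to 1532 (0.869). At Stmn4 the same pool read 903 against 1111 to 1157 (0.834). Gap43 1371287_at, below the filter, read 2.37 in mutant replicate 3 against 0.140 to 0.410 in the other mutant pools (0.866).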

How the results depend on the processing

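No member probe set passed under any of the 23 alternatives between mutant and wild-type pools (lowest limma adjusted p = 0.439) or the 20 against the negative control (lowest 0.963). The number of members higher in mutant pools was 10 of 17 and lay between 7 and 12, the 7 being of 10 genes with 1 probe set each. The sign of the difference between mutant and wild-type pools changed under at least 1 alternative for 8 of the 17 and stayed for 9. Of 717 member values under the alternatives 14 moved by more than 1 standard error. Of these, 11 did so with the log2 actin ratio as a covariate and 3 with 1 array left out. Many of the 717 could not move. A change of filter, trend, robust fitting or 1 probe set per gene keeps the estimate between mutant and wild-type pools. So do the tag covariate, the fit of all 9 arrays and the replicate block. In all, 36 of the 717 changed sign. At 16 of 17 members in each comparison the main interval included 0. A direction set by an interval on 1 side of 0 could thus turn at few, and none did. Among all probe sets the 3 calls between mutant and wild-type pools became 5 with median centring, 1 without a filter, with a filter at the 60th percentile or with the le2 tag as a covariate, and 0 without an intensity trend, with the actin ratio as a covariate or without the untagged arrays (993, 680 and 670 at an unadjusted p under 0.05); leaving out 1 array gave 1 to 3. The departures of same-numbered pools from their group means correlated at 0.12, 0.087, −0.074 and 0.20, not all over 0.1, so the numbers were not taken as pairs. With a replicate block the calls numbered 3 as without it, and it changed no member's call; only pools 1 and 4 correlated best with their own number. Against the negative control the 0 calls became 1 with median centring (both transgenes, and wild-type alone), with the smaller pseudocount of 2.06 (both, mutant and wild-type) and with 1 probe set per gene (both, and wild-type), and 0 to 1 with an array left out for both and for wild-type. The actin ratio of mutant over wild-type pools, −0.53 on the log2 scale, ranged from −0.65 to −0.24 with an array left out, with exact permutation p = 0.0571 each time, the smallest that 35 arrangements allow. The cause of these changes was not tested.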
